A study of Mus musculus with 62 samples.

Results

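Interferon-stimulated genes are the transcripts that cells raise when an interferon binds its receptor. The 44 genes described here were picked by their mouse symbols from a list of such genes, and each had detectable counts among the 27179 genes counted in the forebrain of Ts65Dn embryos and in the hippocampus of adult Ts65Dn mice. Of these, 42 lie outside the chromosome segments that Ts65Dn mice carry in an additional copy, and 2, Mx1 and Mx2, lie inside and are described apart from the rest. The rule for the choice used no difference between groups, although the members were chosen with earlier results of these data known. Ts65Dn is a mouse model of Down syndrome with a segmental trisomy of distal chromosome 16 and proximal chromosome 17, and Brwd1, a chromatin reader, is 1 of the triplicated genes. RNA-seq was performed on the forebrain of E17.5 embryos (8 euploid and 7 Ts65Dn) and on the hippocampus of 6-week-old mice. The adult animals were 8 euploid, 7 Ts65Dn and 8 Ts65Dn;Brwd1+/- males and 8 females of each of these genotypes. In the Ts65Dn;Brwd1+/- mice Brwd1 was returned to its usual copy number by the repro5 mutant allele, while the other triplicated genes kept their additional copy. The background was mixed (DBA/2J and B6EiC3Sn/J), and for the rescue experiments Ts65Dn females were crossed to males heterozygous for repro5. The paper also describes a cross of Ts65Dn females to euploid males, and which cross gave the embryos is not stated. The embryos' sex is not given in the labels used here, and transcripts of the Y-linked gene Ddx3y exceeded 1 CPM, the count scaled by library total, in 3 of 7 Ts65Dn and 2 of 8 euploid libraries.

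Interferons are secreted by infected or stressed cells. Type I interferons bind the receptor chains Ifnar1 and Ifnar2, which signal through the kinases Jak1 and Tyk2 to a complex that holds Stat2 and Irf9 and binds a promoter sequence called the interferon-stimulated response element (ISRE). Interferon gamma acts through Ifngr1 and Ifngr2, and its targets carry the gamma-activated sequence (GAS). In the brain, microglia, endothelial cells, choroid plexus and neurons can all express interferon-stimulated genes, and Ifnar1, Ifnar2 and Ifngr2 are themselves triplicated in Ts65Dn mice. The 44 genes were grouped by role as transcription factors, nucleic acid sensors, RNA-binding and translation effectors, membrane and nucleotide effectors, ISG15 and ADP-ribose enzymes, interferon-inducible GTPases, antigen presentation genes, other induced genes, and the Mx genes.

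Promoter sequences of 34 of the 44 genes were matched in RefSeq (GRCm38.p6). In the 250 bases before the start, an ISRE-like sequence, spelled as GAAA, 2 bases of any kind and GAAA, occurred on either strand in 13 of the 34 (38.2%) and in 936 of 27025 promoters in all (3.46%). A GAS-like sequence, spelled as TTC, 3 bases of any kind and GAA and the same on both strands, occurred in 7 of the 34 (20.6%) and in 8.13% of all promoters. Windows of 60 bases are shown for 6 of the 13, namely for B2m, Bst2 and Irgm1, which passed the test in a comparison below, and for Isg15, Ifit1 and Rsad2 as classic targets of the pathway. Each is written 5′ to 3′ on the strand of its gene, with the ISRE-like letters in capitals. A match on the other strand reads TTTC, 2 bases and TTTC, as in Ifit1 and Rsad2.
B2m (chr2:122147523-122147582, + strand): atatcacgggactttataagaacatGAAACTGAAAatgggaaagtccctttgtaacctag
Bst2 (chr8:71537565-71537624, - strand): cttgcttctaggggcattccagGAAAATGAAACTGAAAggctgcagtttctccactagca
Irgm1 (chr11:48871421-48871480, - strand): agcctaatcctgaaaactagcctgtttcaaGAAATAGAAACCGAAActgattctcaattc
Isg15 (chr4:156200856-156200915, - strand): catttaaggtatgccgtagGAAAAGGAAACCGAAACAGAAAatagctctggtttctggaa
Ifit1 (chr19:34640769-34640828, + strand): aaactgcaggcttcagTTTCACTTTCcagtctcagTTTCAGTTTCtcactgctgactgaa
Rsad2 (chr12:26456538-26456597, - strand): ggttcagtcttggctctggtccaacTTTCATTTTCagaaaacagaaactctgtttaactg
The B2m and Rsad2 windows hold 1 match each, Bst2, Irgm1 and Ifit1 hold 2, and Isg15 holds 3 that overlap in a row. Of the other genes that passed the test outside the segments, Ifi44, Trim25 and H2-K1 have no such letters in their 250 bases, which says only that these letters are not in that window.

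Library totals ran from 14.9 to 62.6 M counts in embryos and from 33.6 to 137.1 M in adults. The embryonic median was 43.1 M in Ts65Dn and 23.7 M in euploid libraries, so low levels in euploid embryos rest on fewer reads. Levels are CPM after TMM scaling, and a gene was called when its Benjamini-Hochberg adjusted p from edgeR's quasi-likelihood test over all genes was under 0.1. Of the adult libraries labelled as trisomic, 3 male ones (B145, B138 and T35) and 1 female one (B136) had the triplicated genes at the euploid level, with medians between -0.01 and 0.04 on the log2 scale against the euploid mean. Transcripts of the sex chromosomes went against the label in 1 library labelled male Ts65Dn (B88) and 1 labelled female euploid (B85). All 6 were kept, and results that move without them are given with both values. As these are bulk samples, more cells of a type and more RNA per cell cannot be told apart.

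Levels in euploid tissue differed widely between these genes. Compared per length in RPKM (CPM per kilobase of exons), B2m, the light chain of the MHC class I molecule, had the highest median in the 16 adult euploid libraries (74.8 RPKM, range 51.1 to 101.0). It was followed by Ifi27 (19.8 RPKM), Ifitm3, which restricts viral entry (8.99 RPKM), Cmpk2, a mitochondrial nucleotide kinase (5.8 RPKM), and H2-K1, a class I heavy chain (5.61 RPKM). The ranges of B2m and Ifi27 did not overlap, while Cmpk2 (4.89 to 7.18 RPKM) lay within the range of H2-K1 (3.0 to 13.2 RPKM). In CPM, 38 of the 44 were higher in adult euploid hippocampus than in E17.5 euploid forebrain, 24 of them at least 2-fold, with a median ratio of 2.23. The tissue differs with age and both tables were scaled separately, so this is a description of levels.

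In E17.5 forebrain, B2m, Bst2 and H2-K1 were higher in Ts65Dn than in euploid embryos, and so was the triplicated Mx2. Of the 42 genes outside the segments, 40 passed the filter on low counts (Ifit1 and Zbp1 did not, nor did Mx1), and 3 of the 40 were called, all higher, where 1.35% of all 16395 tested genes were called and 1.1% were called higher. At an unadjusted p under 0.05, 20 of the 40 passed, all higher in Ts65Dn, against 12.1% of all genes in either direction. The log2 difference was above 0 for 36 of the 40, with a median of 0.43, whereas 46.3% of all genes were above 0. Without the filter the median over all 42 genes was 0.44. Leaving out 1 library at a time gave from 1 call (without the euploid library Eu7 or the Ts65Dn library Ts7) to 6 calls (without Eu3).

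B2m (Entrez 12010, chr2:122147687-122153082) was at 25.1, 28.0 and 29.5 CPM (lowest, median and highest) in Ts65Dn embryos and at 15, 17.7 and 29.1 CPM in euploid embryos. All 7 Ts65Dn libraries were above the euploid median, although the highest euploid library reached the Ts65Dn range. B2m rose 1.47-fold, with a log2 fold change of 0.56 ± 0.11 (SE, n = 7 and 8, edgeR adjusted p = 0.025). H2-K1 (14972, chr17:33996012-34000619), the heavy chain that pairs with B2m at the cell surface, was at 4.94, 7.06 and 9.99 CPM in Ts65Dn and 3.64, 4.89 and 6.14 CPM in euploid embryos. Its groups overlapped, and it rose by a log2 of 0.65 ± 0.16 (adjusted p = 0.0634). Its lowest Ts65Dn levels were in Ts1 and Ts5, the Ts65Dn libraries in the low range of H2-D1 described below. Bst2 (69550, chr8:71534255-71537472), or tetherin, holds budding virus particles at the membrane. Its level was 3.92, 4.97 and 5.47 CPM in Ts65Dn and 1.87, 2.73 and 4.22 CPM in euploid embryos, with overlap only at the edge of the ranges. The log2 fold change of Bst2 was 0.73 ± 0.17 (adjusted p = 0.051).

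By role, antigen presentation held 2 of the 3 calls, with a median log2 difference of 0.60 over its 6 genes. Psmb8, an immunoproteasome subunit, was at 0.70 ± 0.29 (adjusted p = 0.356) and H2-D1 at 0.93 ± 0.62 (0.54). Tap1, which carries peptides into the endoplasmic reticulum, was the member with the smallest p in the lower direction, at -0.33 ± 0.16 (adjusted p = 0.414). Its level was 2.83, 3.01 and 4.09 CPM in Ts65Dn and 2.63, 3.82 and 5.35 CPM in euploid embryos, so the euploid range enclosed that of Ts65Dn. All 6 ISG15, ubiquitin and ADP-ribose enzymes were above 0 (median 0.60), and edgeR called none. Dtx3l, an E3 ligase that works with Parp9, came nearest, at 0.58 ± 0.16 (adjusted p = 0.111), and DESeq2 with its size factors called it.

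The membrane and nucleotide effectors had 1 call, Bst2, and a median of 0.55 over 4 genes. In this group Rsad2, or viperin, had the largest log2 difference of the 40 genes, 1.24 ± 0.44, and missed the threshold (adjusted p = 0.263). The library titles carry 1 of 2 numbers, described below. With the lower number Rsad2 was at 3.07 to 4.01 CPM in 4 Ts65Dn and 0.736 to 1.97 CPM in 4 euploid libraries. With the higher number it was at 0.633 to 1.18 CPM in 3 Ts65Dn and 0.347 to 1.62 CPM in 4 euploid libraries, which overlapped. The 5 interferon-inducible GTPases, which act on vacuoles of intracellular pathogens, lay between 0.29 and 0.75, and the 6 other induced genes between 0.15 and 1.04, with Ifi44 at the top. The translation effectors were more uneven, from -0.00 for Ifit2 to 0.75 for Ifit3. Among the transcription factors, Irf7 was at 0.53 ± 0.19 (adjusted p = 0.26). The signalling factors Irf9 at 0.05 ± 0.07 and Stat2 at -0.07 ± 0.05, were not called. Stat2 had 32.7, 36.5 and 41.3 CPM in Ts65Dn and 36.4, 38.2 and 40.9 CPM in euploid embryos.

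**Figure D1:**
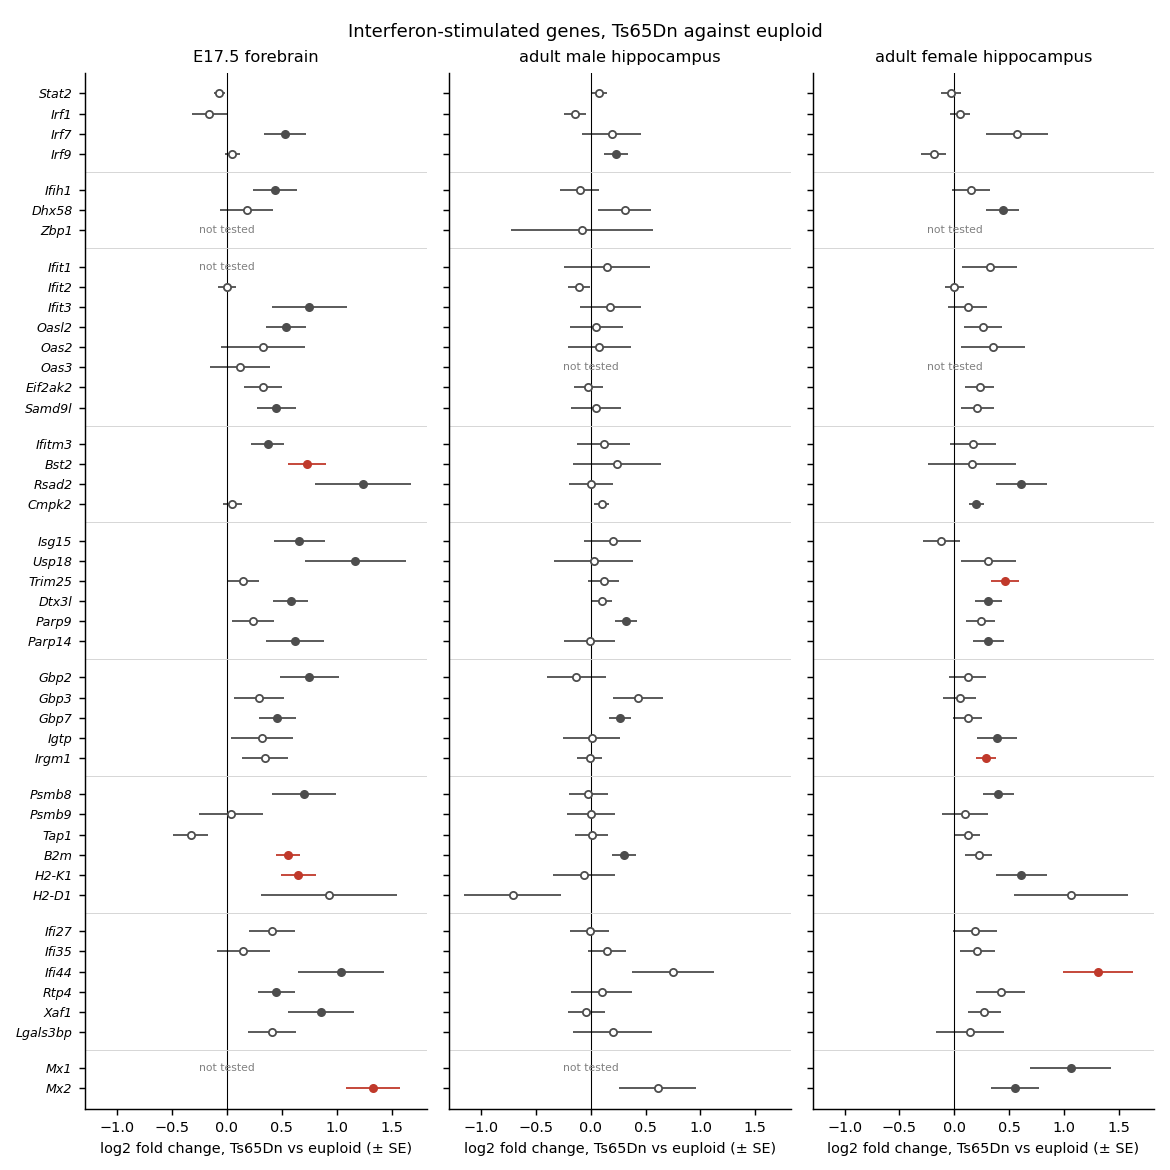
Log2 fold change of Ts65Dn against euploid (x axis, with SE as bars) for each tested gene (y axis, grouped by role) in E17.5 forebrain, adult male and adult female hippocampus. Red points have an adjusted p under 0.1, filled grey points an unadjusted p under 0.05 and open points neither, and 36 of 40 genes outside the segments lie above 0 in embryos, 27 of 41 in males and 37 of 40 in females.

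Markers of several cell types differed between the embryonic genotypes. The endothelial markers were above 0 for 7 of 8 genes (median log2 difference 0.22), with 4 at an unadjusted p under 0.05 and Cdh5 called at 0.48, and their summed level was 190.5 to 261 CPM in Ts65Dn and 166.9 to 220.6 CPM in euploid embryos. With this sum as a term in the fit, none of the 40 genes was called by edgeR, while 13 had an unadjusted p under 0.05 (11 higher and 2 lower) and the median was 0.41. Over all 16395 genes that fit called 235, and 1874 had an unadjusted p under 0.05. B2m was then at 0.40 with an adjusted p of 0.185. Choroid plexus markers were above 0 for 9 of 9 genes (683 to 1580 against 58.3 to 1440 CPM in sum). With that sum as a term B2m was the only member called, where 123 of all 16395 genes were called. Of the 5 markers of border macrophages and meningeal fibroblasts, Lyve1 and Mrc1 were called higher, and the sum was 156 to 256 CPM in Ts65Dn and 77.6 to 859 CPM in euploid embryos, the highest in Eu3. The sum of the astrocyte markers was 562 to 755 CPM in Ts65Dn and 433 to 775 CPM in euploid embryos, with Gja1 called higher, and 4 of 5 mural cell markers were above 0 (median 0.05), with Vtn called higher. Excitatory neuron markers were below 0 for 5 of 5 genes with none called (292 to 1020 against 659 to 1210 CPM). The 8 microglial markers had no call (79.4 to 94.5 against 74.7 to 93.8 CPM, median log2 difference 0.01). Of the 4 markers of T and NK cells, only Ptprc was expressed enough to be tested. The part of these cells in the differences was not tested beyond these fits.

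**Figure D2:**
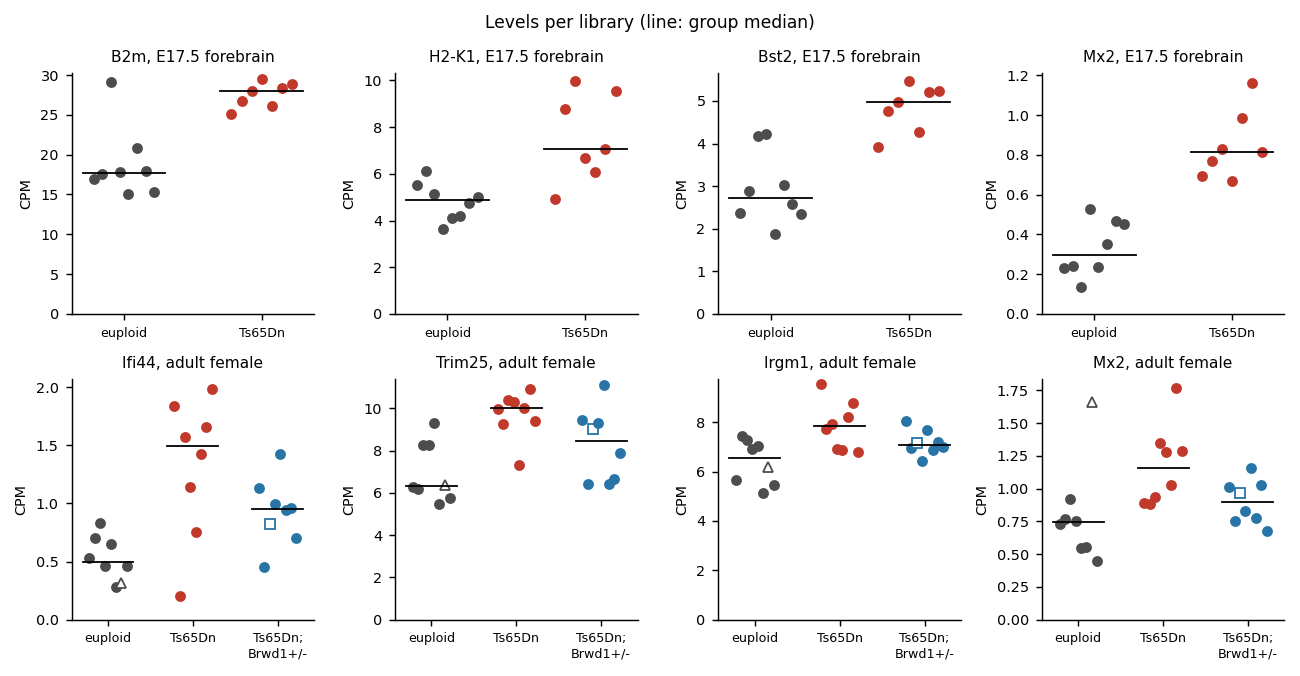
CPM (y axis) in each library of B2m, H2-K1, Bst2 and Mx2 in E17.5 forebrain and of Ifi44, Trim25, Irgm1 and Mx2 in adult female hippocampus, by genotype (x axis), with a line at each group's median. In embryos Mx2 is at 0.67 to 1.16 CPM in Ts65Dn and 0.135 to 0.528 CPM in euploid libraries, without overlap, and in the other panels the genotypes overlap.

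In adult females, Ifi44, Trim25 and Irgm1 were higher in Ts65Dn than in euploid hippocampus. B2m at 0.22 ± 0.12, Bst2 at 0.16 ± 0.40 and H2-K1 at 0.61 ± 0.23 on the log2 scale were not called there. Of the 42 genes outside the segments 40 were tested (not Oas3 and Zbp1), and the 3 called were all higher, where 3.17% of all 17146 tested genes were called and 1.94% were called higher. At an unadjusted p under 0.05, 11 of the 40 passed, all higher, against 15.4% of all genes in either direction. The log2 difference was above 0 for 37 of the 40, with a median of 0.23, whereas 45.7% of all genes were above 0. Leaving out 1 library at a time gave 1 call without B85, B65 or B103, 6 without B56 and 8 without B125.

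Ifi44 (99899, chr3:151730922-151749910), a cytoplasmic protein induced by type I interferon, was at 0.201, 1.5 and 1.98 CPM in Ts65Dn females and 0.278, 0.496 and 0.834 CPM in euploid females. The library B134 was the lowest of all 16 and the other 7 Ts65Dn libraries were above the euploid median. Ifi44 rose 2.48-fold, by a log2 of 1.31 ± 0.32 (n = 8 and 8, edgeR adjusted p = 0.0334). Trim25 (217069, chr11:88999403-89020294) is a ubiquitin and ISG15 ligase that activates the RNA sensor RIG-I. Its level was 7.33, 9.99 and 10.9 CPM in Ts65Dn and 5.45, 6.32 and 9.31 CPM in euploid females, and it rose by a log2 of 0.46 ± 0.13 (adjusted p = 0.0618). Without the euploid library B85, Trim25 was at 0.45 with an adjusted p of 0.111. Irgm1 (15944, chr11:48865245-48871420) is a GTPase that controls autophagy of intracellular pathogens. It was at 6.8, 7.83 and 9.53 CPM in Ts65Dn and 5.12, 6.54 and 7.46 CPM in euploid females, and rose by a log2 of 0.29 ± 0.09 (adjusted p = 0.0989). All 8 Ts65Dn libraries were above the euploid median for Trim25 and for Irgm1. Without B85, Irgm1 had an adjusted p of 0.152, which left Ifi44 as the 1 call. B85 also stood apart in its markers of progenitors and young neurons (273 CPM in sum, against 97.6 to 140.0 CPM in the other adult libraries) and of interneurons (1130 against at most 816 CPM), and had the lowest mean of the members of all adult female libraries. Irgm1 was also not called under upper-quartile normalization (adjusted p = 0.119).

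The genes next in order were Cmpk2 at 0.20 ± 0.07 (adjusted p = 0.13), Dhx58, a helicase that tunes RNA sensing, at 0.44 ± 0.15 (0.133), Psmb8 at 0.40 ± 0.14 (0.169) and Rsad2 at 0.61 ± 0.23 (0.172). All 6 antigen presentation genes were above 0, from Psmb9 at 0.10 to H2-D1 at 1.06, with none called. In the lower direction the smallest p belonged to Irf9 at -0.19 ± 0.11 (adjusted p = 0.428) and Isg15 at -0.12 ± 0.17 (0.809). Isg15, a ubiquitin-like modifier, was at 0.805, 1.06 and 1.83 CPM in Ts65Dn and 0.858, 1.23 and 1.74 CPM in euploid females, with nearly the same range.

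Endothelial markers were above 0 for 7 of 8 genes in females too, with 3 at an unadjusted p under 0.05 and none called, and their sum was 156.9 to 257.4 CPM in Ts65Dn and 138.4 to 227.6 CPM in euploid animals. With this sum as a term no member was called by edgeR, 5 had an unadjusted p under 0.05, the median was 0.12, and Ifi44 was at 1.09 with an adjusted p of 0.153. Over all 17146 genes that fit called 179, and 1926 had an unadjusted p under 0.05. Microglial markers were above 0 for 7 of 8 genes with none called (335 to 447 against 315 to 397 CPM in sum). The sum of the border macrophage and meningeal fibroblast markers was 24.7, 88.7 and 108 CPM in Ts65Dn and 18.6, 39.5 and 114 CPM in euploid females, with 2 of 5 markers above 0 and none called. Ptprc, a marker of all leukocytes, was called higher, at a log2 difference of 0.34. With the choroid plexus marker sum as a term, 6 members were called (Ifi44, Irf7, Irgm1, Psmb8, Rsad2 and Trim25) and 20 had an unadjusted p under 0.05. Over all 17146 genes that fit called 925, and 3041 had an unadjusted p under 0.05.

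In adult males none of the 41 tested genes outside the segments was called by edgeR between Ts65Dn and euploid animals, where 0.795% of all 16851 genes were called. At an unadjusted p under 0.05, 4 passed, all higher in Ts65Dn (B2m, Gbp7, Irf9 and Parp9), against 8.91% of all genes. DESeq2 with its size factors called none, and gave no adjusted p for 2 of the 41. The median log2 difference was 0.08, with 27 of 41 genes above 0, and it was -0.06 without the library B88 and 0.04 when B145, B138 and T35 were left out as well.

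The smallest p belonged to Parp9, a macrodomain protein of the PARP family that partners with Dtx3l. It was at 2.94, 3.56 and 4.56 CPM in Ts65Dn and 2.38, 2.83 and 3.52 CPM in euploid males, and all 7 Ts65Dn libraries were above the euploid median. Its log2 difference was 0.32 ± 0.10 (edgeR adjusted p = 0.267). Gbp7, a guanylate-binding protein, was at 0.27 ± 0.10 (adjusted p = 0.361) and B2m at 0.30 ± 0.11 (0.386). In the lower direction H2-D1 was at -0.71 ± 0.44 (adjusted p = 0.699) and Irf1 at -0.14 ± 0.10 (0.739). Ifi44, which rose in females, was at 0.75 ± 0.37 in males (adjusted p = 0.575). Its levels were 0.422, 0.954 and 1.98 CPM in Ts65Dn and 0.283, 0.546 and 1.32 CPM in euploid males, so it was not shown to differ at this spread.

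The comparison of Ts65Dn;Brwd1+/- with Ts65Dn animals addresses whether these genes move when Brwd1 alone returns to its usual dose. In males, Ts65Dn;Brwd1+/- and Ts65Dn animals did not differ in any of the 41 genes by edgeR at the threshold, and 0.0% of all genes were called. At an unadjusted p under 0.05, 3 members passed, all lower (Parp9, Cmpk2 and Gbp7), against 7.48% of all genes, and DESeq2 with its size factors called no member. The study itself used RUVr normalization and DESeq2, and reported genes that differed in this comparison at the same FDR. Here DESeq2 with 3 RUVr factors called 997 of 16851 genes and 1 member, Parp9, lower. The median log2 difference was -0.11, with 30 of 41 below 0. For the members' mean per library, described below, the group medians went the other way, at -0.07 in Ts65Dn and -0.01 in Ts65Dn;Brwd1+/- males. Its group averages, 0.07 in Ts65Dn and 0.02 in Ts65Dn;Brwd1+/- males, went the same way as the fit. Among the doubted libraries the members' mean was 0.61 in B88 and -0.23 in B145 (Ts65Dn), and -0.19 in B138 and -0.26 in T35 (Ts65Dn;Brwd1+/-). The direction was thus not settled, and B138 and T35 had the other triplicated genes at the euploid level too. Parp9 was at 2.51, 2.94 and 3.25 CPM in Ts65Dn;Brwd1+/- males, and none of these 8 libraries was above the Ts65Dn median of 3.56 CPM. Its log2 difference from Ts65Dn was -0.31 ± 0.10 (adjusted p = 0.626). Parp9 and Gbp7 also stood out above in the same Ts65Dn libraries, so part of a difference the other way can follow from sharing them. Gbp2 had the smallest p in the higher direction, at 0.36 ± 0.26 (adjusted p = 0.785).

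In females, Ts65Dn;Brwd1+/- and Ts65Dn animals likewise had no called member among 40, with 0.0% of all genes called and 1 member at an unadjusted p under 0.05, against 3.52% of all genes. That member was Rsad2, at -0.48 ± 0.23 (edgeR adjusted p = 1.0). DESeq2 with its size factors called no member, though it gave no adjusted p for 18 of the 40. With 3 RUVr factors DESeq2 called 880 of 17146 genes and 1 member, Trim25, lower. Of the 40 genes 30 were below 0, with a median of -0.08. The 3 genes that rose in Ts65Dn females had intermediate medians in Ts65Dn;Brwd1+/- females. The same Ts65Dn libraries singled out these 3 genes, so medians nearer to euploid can follow from that choice. Ifi44 was at 0.451, 0.953 and 1.42 CPM, Trim25 at 6.4, 8.46 and 11.1 CPM and Irgm1 at 6.43, 7.09 and 8.04 CPM. Their log2 differences from Ts65Dn were -0.51 ± 0.31, -0.22 ± 0.13 and -0.12 ± 0.09, each with an adjusted p of 1.0. These ranges overlapped those of both other genotypes, so neither a return to the euploid level nor its absence was detectable.

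Ts65Dn;Brwd1+/- animals share their euploid controls with the Ts65Dn comparison. Against euploid animals no member was called in either sex by edgeR, where 0.576% of all genes were called in males and 0.729% in females. At an unadjusted p under 0.05, 1 of 41 members passed in males, H2-D1 at -1.26 ± 0.44 (adjusted p = 0.297), against 10.1% of all genes. In females 3 of 40 passed, all higher, against 11.2% of all genes, namely Psmb8 at 0.39 ± 0.14 (adjusted p = 0.316), Ifi44 at 0.80 ± 0.32 (0.344) and Igtp at 0.37 ± 0.18 (0.436). The medians were 0.01 in males and 0.17 in females. DESeq2 with its size factors called no member in either sex, and gave no adjusted p for 1 of the 41 in males.

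Whether the genotype difference itself differed between the sexes was tested as an interaction over all 6 adult groups, and edgeR called no member and none of 17427 genes (0.0% in both interactions). For the Ts65Dn interaction DESeq2 with its size factors called 94 genes and no member, though it gave no adjusted p for 23 of the 41 members, and for the other it called 1 gene and no member. With 3 RUVr factors DESeq2 called 4 members (Eif2ak2, Irf9, Irgm1 and Trim25) among 2592 genes for Ts65Dn. For Ts65Dn against euploid 4 of 41 members had an unadjusted p under 0.05, against 11.1% of all genes. These were Irf9 at -0.42 (adjusted p = 0.315), H2-D1 at 1.78, Irgm1 at 0.31 and Rsad2 at 0.62, each as the female minus the male log2 difference. For Ts65Dn;Brwd1+/- against Ts65Dn, 0 of 41 members had an unadjusted p under 0.05, against 3.73% of all genes.

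The embryonic and adult comparisons share no animals, so their directions could be set side by side. Of 39 members tested in both embryos and females, 33 (84.6%) were higher in Ts65Dn in both, while 26.1% of 15842 genes outside the segments were. Most members were above 0 in each comparison alone, so high shares in both follow from that and do not test agreement gene by gene. At an unadjusted p under 0.05, 6 were higher in both (Dtx3l, H2-K1, Ifi44, Parp14, Psmb8 and Rsad2), which is 15.4% of the members and 0.877% of the other set. Of the 39, 20 passed in embryos alone and 11 in females alone. The embryonic ranges of Rsad2 were apart only among libraries with the lower title number. Dtx3l and Parp14 are neighbours on chromosome 16 with Parp9, proximal to the triplicated segment. Between embryos and males 24 of 39 (61.5%) were higher in both, against 22.1% of genes outside the segments, and 2 passed the unadjusted threshold in both, B2m and Gbp7. Between males and females 24 of 40 (60%) were higher in both, against 23.1%, and no member passed in both.

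The members' mean log2 difference from the euploid mean of the same tissue and sex was then computed in each library. In embryos it was 0.13, 0.49 and 0.72 in Ts65Dn and -0.30, -0.04 and 0.35 in euploid libraries, so that the euploid libraries Eu3 and Eu6 were above the lowest Ts65Dn library, Ts1, and below the other 6. The library titles carry 1 of 2 numbers, whose meaning is not given. Among the embryos with the lower number the mean was 0.44 to 0.72 in 4 Ts65Dn and -0.30 to 0.23 in 4 euploid libraries, and among those with the higher number it was 0.13 to 0.49 in 3 Ts65Dn and -0.21 to 0.35 in 4 euploid libraries. In females the mean was -0.14, 0.32 and 0.76 in Ts65Dn, -0.02, 0.21 and 0.39 in Ts65Dn;Brwd1+/- and -0.32, -0.01 and 0.35 in euploid animals. In males the medians lay closer, at -0.07 in Ts65Dn, -0.01 in Ts65Dn;Brwd1+/- and -0.15 in euploid animals. A single euploid male, B139, reached 0.76, with the next euploid male at 0.13, and the Ts65Dn males B74 (0.57) and B88 (0.61) stood above the other 5, which were at -0.25 to -0.01.

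**Figure D3:**
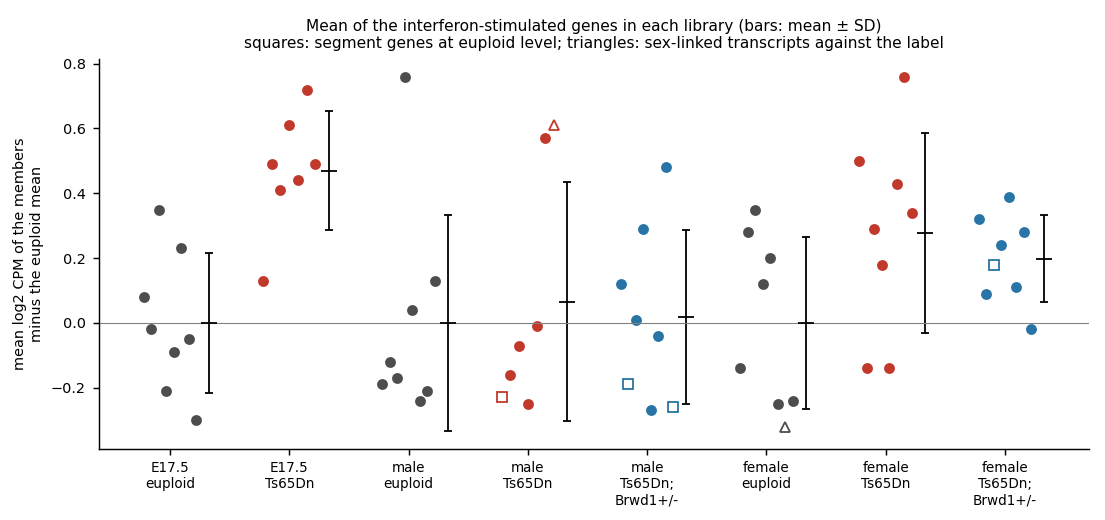
Mean log2 CPM of the members outside the segments, minus the mean of the euploid libraries (y axis), for each library by genotype (x axis) in E17.5 forebrain and in adult males and females, with bars for the group mean and SD. Squares mark the 4 libraries with triplicated genes at the euploid level and triangles the 2 whose sex-linked transcripts went against the label; the highest euploid male is B139 at 0.76.

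The adult libraries differed widely in choroid plexus, a tissue bordering the hippocampus that secretes cerebrospinal fluid, and the members' mean was split by it in euploid females and Ts65Dn males and overlapped in the other groups. The summed level of 9 choroid plexus markers ranged from 39.0 to 6470 CPM over the adult libraries. At over 1000 CPM the mean was 0.12 to 0.35 in 4 euploid females, and below that it was -0.32 to -0.14 in the other 4. In Ts65Dn females it was 0.29 to 0.76 in 4 libraries above 1000 CPM and -0.14 to 0.50 in 4 below. In Ts65Dn;Brwd1+/- females it was 0.09 to 0.39 in 5 libraries above and -0.02 to 0.32 in 3 below. The Ts65Dn males above 1000 CPM were B74 and B88 alone, at 0.57 and 0.61, and the other 5 were at -0.25 to -0.01. In euploid males the mean was -0.24 to 0.76 in 4 libraries above and -0.21 to -0.12 in 4 below, and in Ts65Dn;Brwd1+/- males -0.26 to 0.29 in 4 above and -0.27 to 0.48 in 4 below. The members also varied together within groups, with a median pairwise correlation across genes of 0.5 over 23 male libraries (41 genes), 0.38 over 24 female libraries (40 genes) and 0.19 over 15 embryonic libraries (40 genes). These points share library depth and tissue makeup, and the correlations are a description. The part of choroid plexus in the genotype differences was not tested beyond the fits with its marker sum as a term.

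**Figure D4:**
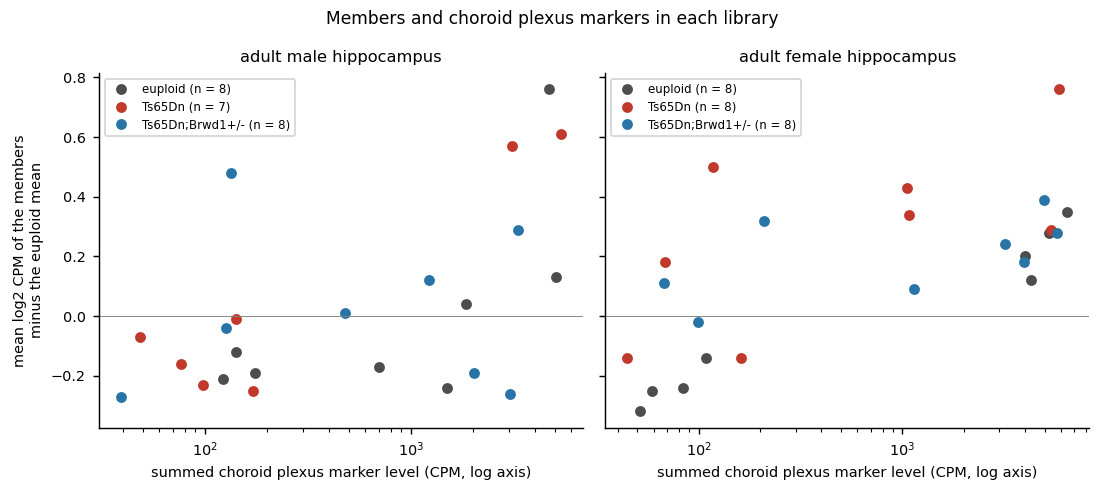
Mean log2 CPM of the members outside the segments minus the euploid mean (y axis) against the summed CPM of 9 choroid plexus markers (x axis, log scale) in each adult library, by genotype and sex. Euploid females above 1000 CPM are at 0.12 to 0.35 and those below at -0.32 to -0.14.

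The class I gene H2-D1 (14964, chr17:35263094-35267497), which presents peptides like H2-K1, fell into separate ranges. In embryos 6 libraries were at 1.21 to 2.91 CPM and 9 at 8.2 to 20.5 CPM, and the low range held 2 of 7 Ts65Dn and 4 of 8 euploid embryos. In adults 23 libraries were at up to 7.16 CPM and 24 at 11.5 CPM or more. None of 8 euploid males was in the low adult range, which held 4 of 7 Ts65Dn and 6 of 8 Ts65Dn;Brwd1+/- males. Among females it held 5 of 8 euploid, 3 of 8 Ts65Dn and 5 of 8 Ts65Dn;Brwd1+/- animals. Its log2 genotype differences ran from -1.26 (Ts65Dn;Brwd1+/- against euploid males) to 1.06 (Ts65Dn against euploid females), and edgeR called none, while DESeq2 with 3 RUVr factors called the former. The alleles of the mixed background were not read here, and their part in these ranges and in the levels of H2-K1 was not tested. H2-K1, on the same chromosome, ran from 8.15 to 38.9 CPM in adults. Its widest step between neighbouring libraries was 1.16-fold, against 1.61-fold for H2-D1 (1.24-fold and 2.82-fold in embryos). H2-K1 still followed the H2-D1 range in some groups. In Ts65Dn females it was at 17.7 to 36.6 CPM in libraries of the high H2-D1 range and below 17.7 CPM in the others. In Ts65Dn embryos it was at 6.67 to 9.99 CPM in the high range and 4.94 and 6.09 CPM in the low. Euploid embryos overlapped, at 4.09 to 6.14 and 3.64 to 5.13 CPM. Ts65Dn;Brwd1+/- females were also apart, while euploid females, Ts65Dn males and Ts65Dn;Brwd1+/- males overlapped.

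**Figure D5:**
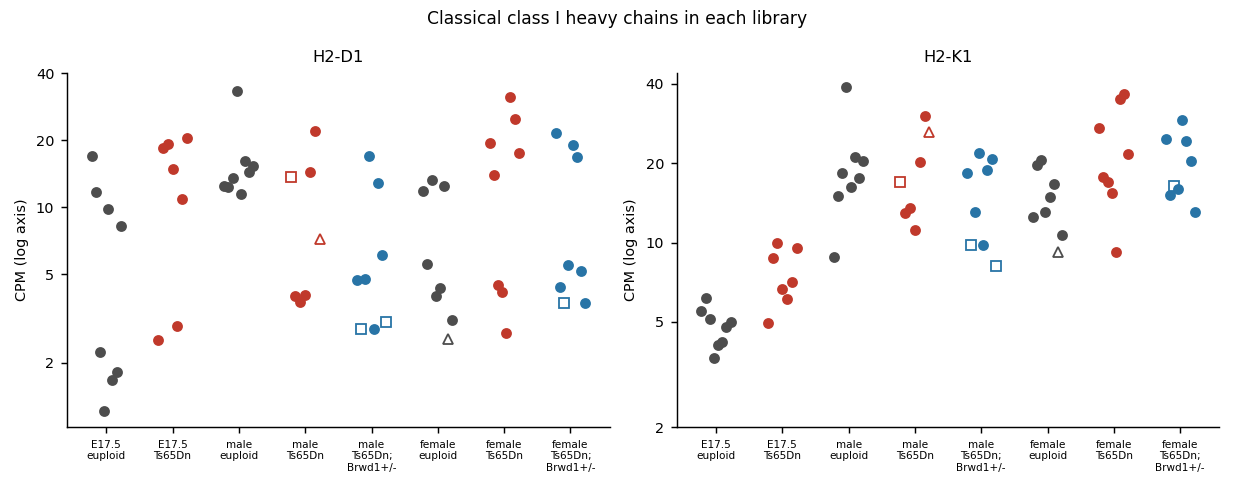
CPM (y axis, log scale) of H2-D1 and H2-K1 in each library by group (x axis). H2-D1 falls into a low and a high range in embryos (up to 2.91 and from 8.2 CPM) and in adults (up to 7.16 and from 11.5 CPM), and no euploid male is in the low range.

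The Mx genes encode dynamin-like GTPases that block virus replication, and both are annotated in RefSeq as transcribed pseudogenes in the reference strain. Mx1 (17857, chr16:97447035-97462906) and Mx2 (17858, chr16:97536081-97560901) lie within the triplicated segment and are therefore set beside the other triplicated genes. In embryos the median log2 difference of 132 other tested genes of the segments was 0.56. Mx2 was at 0.67, 0.814 and 1.16 CPM in Ts65Dn and 0.135, 0.296 and 0.528 CPM in euploid embryos, with no overlap. Mx2 rose 2.51-fold, by a log2 of 1.33 ± 0.25 (95% interval 0.83 to 1.83, edgeR adjusted p = 0.0139). In each of the 7 Ts65Dn libraries Mx2 exceeded the euploid mean by more than the segments' median did, by 0.55 to 1.29 on the log2 scale. The same quantity ran from -1.07 to 0.73 in euploid embryos. Mx1 was too low to be tested in embryos, at up to 0.388 CPM.

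In adult females Mx2 was at 0.881, 1.15 and 1.77 CPM in Ts65Dn, 0.676, 0.898 and 1.16 CPM in Ts65Dn;Brwd1+/- and 0.444, 0.741 and 1.66 CPM in euploid animals. The highest euploid female was B85, whose sex-linked transcripts went against its label. The log2 difference of Mx2 between Ts65Dn and euploid was 0.55 ± 0.22 (adjusted p = 0.213), close to the median of 0.52 of the other triplicated genes, and without B85 it was called at 0.81 (adjusted p = 0.0284). Mx1 was at 0.122, 0.286 and 0.637 CPM in Ts65Dn and 0.0512, 0.145 and 0.235 CPM in euploid females, a log2 difference of 1.06 ± 0.37 (adjusted p = 0.152). In Ts65Dn;Brwd1+/- females Mx1 was at 0.025, 0.165 and 0.276 CPM, at -0.89 ± 0.38 from Ts65Dn (adjusted p = 1.0). In males Mx2 was at 0.22, 1.05 and 2.1 CPM in Ts65Dn and 0.327, 0.588 and 1.49 CPM in euploid animals. Its log2 difference was 0.61 ± 0.35 (adjusted p = 0.654), and the lowest Ts65Dn library, B145, was 1 of those with triplicated genes at the euploid level. Without B145 it was 0.79 (adjusted p = 0.389), and without B74, the highest, 0.34 (adjusted p = 0.791). Mx1 did not pass the filter in males.

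Of 63 other genes of the pathway, the type I receptor chains rose in each Ts65Dn comparison and the ligands were at or near 0. The 5 ligand genes (Ifnb1, Ifng, Ifna2, Ifna4 and Ifnk) had medians of 0 CPM in every group and at most 0.104 CPM in a library. Ifnar1 rose by a log2 of 0.49 ± 0.05 in embryos, 0.53 ± 0.09 in males and 0.56 ± 0.06 in females, and Ifnar2 by 0.58 ± 0.08, 0.58 ± 0.13 and 0.64 ± 0.12. In all, 5 of 49 tested pathway genes were called in embryos, 3 of 57 in males and 8 of 57 in females, all higher. Over all genes 1.35%, 0.795% and 3.17% were called. Triplicated receptor chains made up 4, 3 and 4 of these calls. Apart from them the calls were Trim21, an antibody receptor and ubiquitin ligase, in embryos (0.58 ± 0.15, adjusted p = 0.0893), none in males, and Irf8, Jak1, Cd274 and Sting1 in females. Of these, Irf8 is a myeloid transcription factor (0.35 ± 0.09), Jak1 the receptor kinase (0.20 ± 0.06), Cd274 the checkpoint ligand PD-L1 (0.44 ± 0.12) and Sting1 the adaptor of DNA sensing (0.39 ± 0.10).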

How the data were processed

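Poly(A) RNA was sequenced with single reads. Alignment was to mm10 with HISAT2 and counting with featureCounts 2.0.1, per the study's methods, and the authors deposited raw counts, not normalized, for 27179 Entrez identifiers. The submitters' processing notes list mm9 beside mm10. The annotation named in the paper is Ensembl, whereas the identifiers are Entrez. Whether strand was used in counting is not given, so overlapping genes such as Dtx3l and Parp9 can share reads. No count column was without a sample.

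Symbols and positions came from RefSeq (GRCm38.p6), which matched 25275 identifiers. The segments were taken from 84718281 on chromosome 16 to its end and from the start of chromosome 17 to 8986648, and hold 198 genes of the tables. The robust quasi-likelihood test of edgeR 4.0.16 (R 4.3.3) was applied to counts scaled by TMM and filtered by filterByExpr (minimum count 10), at a Benjamini-Hochberg adjusted p under 0.1, in 1 fit for the embryos, 1 per adult sex and 1 for the interactions. CPM of adults are scaled over all 47 adult libraries, and log2 CPM use a prior count of 0.5. The tests were tested on simulated data. The genes named are Mx1, Mx2, each member called in any comparison, and the 2 members with the smallest p in each direction of each genotype comparison (23 genes). Others were named after their values were seen. The members, lists and tests were chosen with earlier results of these data known.

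DESeq2 1.42.0, RUVr factors (3 in DESeq2, 1 in edgeR), other filters and normalizations, an FDR of 0.05, other sets of samples, a replicate block for the embryos and the omission of each library were alternatives. Terms for marker sums of choroid plexus and endothelium were added after seeing the data. Libraries of a group differed by more than sampling noise, so none repeats another. P-values measure the spread between libraries of a group, which the labels present as separate samples. The alleles, cultured neurons and chromatin data were not analysed here. The values of 1 gene of the pathway list are not reported here.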

Additional observations from a re-analysis of the deposited data

Results flagged for a closer look

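In groups of 7 or 8 libraries the highest and lowest values of the named members and of the members' mean were tested for standing apart by Dixon's criterion, in 192 tests. The 20 values that passed follow. Chance alone passes about 1 in 20 groups.

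The euploid male B139 held 5 of them. Its mean of the members was 0.76 on the log2 scale (next 0.13), with Gbp2 at 4.99 CPM (next 2.97), Gbp3 at 5.8 CPM (3.27), H2-D1 at 33.2 CPM (16.2) and Mx2 at 1.49 CPM (0.674). In the euploid male B110, B2m was lowest at 43.9 CPM (next 58.4). In Ts65Dn males, B88 was highest for Gbp2 at 4.11 CPM (2.38) and Psmb9 at 3.84 CPM, and B74 for Gbp7 at 9.16 CPM (7.5). Among Ts65Dn;Brwd1+/- males, B94 was highest for Gbp2 at 7.81 CPM (3.45) and B26 lowest for Irf1 at 6.62 CPM (8.33).

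In Ts65Dn females the low values were Ifi44 in B134 at 0.201 CPM (next 0.752), Trim25 in B56 at 7.33 CPM (9.24) and Irf1 in T142 at 7.99 CPM (9.29). In Ts65Dn;Brwd1+/- females they were Gbp7 in B176 at 3.9 CPM (5.38) and Mx1 in B133 at 0.025 CPM (0.0966). In Ts65Dn embryos, Irf1 was lowest in Ts5 at 1.81 CPM (2.25) and Tap1 highest in Ts2 at 4.09 CPM (3.08). In euploid embryos, Cmpk2 was highest in Eu1 at 24.8 CPM (21.3) and Isg15 lowest in Eu4 at 0.422 CPM (0.876).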

How the results depend on the processing

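Of the members outside the segments, edgeR called 3 in embryos, 3 in Ts65Dn against euploid females and 0 elsewhere. In embryos the count was 1 at an adjusted p under 0.05, 5 with DESeq2, 20 with DESeq2 and 3 RUVr factors, 5 with edgeR and 1 RUVr factor, and, with terms chosen after seeing the data, 1 with the choroid plexus marker sum and 0 with the endothelium marker sum. With a replicate block it was 2, losing H2-K1 (0.65, adjusted p = 0.144). Same-numbered embryos share only a number, with correlations of their deviations from -0.13 to 0.23. Without 1 library the count ran from 1 to 6. For Ts65Dn against euploid females it was 1 at an adjusted p under 0.05, 6 with DESeq2 and 20 with DESeq2 and 3 RUVr factors. With edgeR and 1 RUVr factor it was 8. It was 1 without the library against its labelled sex and 1 without both kinds of doubted library. With the choroid plexus term it was 6, with the endothelium term 0, and with all 6 adult groups in one fit 6. Upper-quartile normalization gave 2 and the fit without a filter 2 (both losing Irgm1). With at least 10 counts in every library it was 2, but Ifi44 did not pass that filter and was not tested. Without 1 library it ran from 1 to 8. With DESeq2 and 3 RUVr factors it was 3 for Ts65Dn against euploid males, 1 for Ts65Dn;Brwd1+/- against Ts65Dn and 1 against euploid males, 1 and 9 for the same female comparisons, and 4 for the sex by genotype interaction of Ts65Dn. These factors also raised the calls over all genes, to 4040 of 16395 in embryos and 4376 of 17146 in Ts65Dn against euploid females. In the male comparisons, in the order above, the calls were 1193, 997 and 1316 of 16851 genes. For Ts65Dn;Brwd1+/- females they were 880 of 17146 against Ts65Dn and 3553 against euploid, and for the interaction 2592 of 17427. With edgeR and 1 RUVr factor 1446 genes were called in embryos and 2388 in Ts65Dn against euploid females. With DESeq2 alone it was 587 and 1050. Ts65Dn;Brwd1+/- against euploid females gave 1 with edgeR and 1 RUVr factor (among 1550 genes called), and from 0 to 1 without 1 library (1 without B125). B2m was called in 15 of 15 omissions of a library, Mx2 in embryos in 15, Bst2 in 13 (not without Eu7 or Ts7) and H2-K1 in 9 (not without Eu4, Eu5, Eu7, Ts2, Ts3 or Ts7). In females Ifi44 was called in 24 of 24, Trim25 in 19 (not without B21, B85, B65, B103 or B135) and Irgm1 in 12. Directions reversed for Mx2 in Ts65Dn;Brwd1+/- against Ts65Dn males, to 0.02 with the endothelium term and over -0.34 to 0.11 without 1 library (above 0 without B74), and for Irf1 in Ts65Dn;Brwd1+/- against euploid females, over -0.11 to 0.02 (above 0 without B113). The cause of these moves was not tested. Of the other values for named genes, 433 stayed on their side of the threshold, 13 passed it and 15 lost it under alternatives, and 861, 3 and 25 did under omissions. Members at under 1 CPM, such as Mx1 and Zbp1, rest on few reads and were tested in some fits only.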

Other observations

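Although most members were higher in adult than in embryonic euploid tissue, 6 had the higher median in E17.5 forebrain. Among them were Stat2 (38.2 CPM in embryos and 27.3 CPM in adults) and Irf9 (18 and 9.35 CPM), which take part in type I signalling. Ifit2, which restrains translation of viral RNA, was at 14 and 7.64 CPM, and the oligoadenylate synthetase Oas3 at 0.862 and 0.0855 CPM. Ifit1 and Ifit3, neighbours of Ifit2 on chromosome 19, were at 0.165 and 0.353 CPM in embryos and 1.42 and 2.73 CPM in adults. The largest ratio of adult to embryonic median, 8.84, belonged to Ifi27. The tables were scaled separately and forebrain was compared with hippocampus, so age and region cannot be told apart.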
